A study of Homo sapiens with 6 samples.

Results

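The data describe 69 protein-coding genes of the machinery that transcribes DNA and processes RNA: spliceosome and splicing regulators, RNA helicases, 3′ end factors, RNA decay enzymes, RNA polymerase subunits, Mediator and the general transcription factors. They were picked by gene symbol alone (symbols beginning with SRSF, SF3A, SF3B, HNRNP, SNRP, PRPF, RBM, LSM, CPSF, CSTF, DDX, DHX, POLR, MED, INTS, EXOSC, CNOT, TAF or GTF and related stems, leaving out the interferon-linked DDX58, DDX60 and DDX60L) out of 5681 genes, 4129 of them protein coding, in the table that was deposited. RNA was sequenced from HT-29, an established human colorectal cancer cell line. Of 6 libraries, 3 came from cells with a Scramble hairpin, labelled wild type for OGT (numbered 1 to 3), and 3 from cells with a hairpin against OGT, labelled OGT knock down (shOGT, numbered 4 to 6). All cells of both groups had thus been transduced with a hairpin, no library of untransduced cells is part of the comparison, and the OGT hairpin used is not named. Neither a time after infection nor separate cultures are stated in the labels, so p-values measure the spread between these libraries, which may be technical.

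OGT is the enzyme that places the sugar O-GlcNAc on serines and threonines of nuclear and cytoplasmic proteins. Its known substrates include RNA polymerase II and many splicing factors, and splicing of the OGT transcript itself responds to the sugar. Pre-mRNA is spliced by the spliceosome, built from small nuclear ribonucleoprotein particles (the snRNPs U1, U2, U4, U5 and U6) on sites that SR proteins and hnRNPs help to select. Transcription by RNA polymerases I, II and III starts from general transcription factors, with Mediator linking activators to RNA polymerase II, and the Integrator and cleavage factors form the 3′ ends of the transcripts. The question put to these data was how the genes of this machinery differed in level once OGT was lowered. Reads were counted per gene, so isoforms and retained introns were not analysed here.

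The values are read counts divided by a size factor for each library, called normalized counts, and they are not divided by gene length. The table lists genes past a 2-fold difference between these same groups, so being called is a property of the table and not a result about its members. In the fit used here (limma on log2(normalized count + 1), a scale that understates changes of low genes), 99.4% of the 5671 genes tested passed a 2-fold change and an adjusted p under 0.05, and 99.5% had groups that did not overlap. All 69 members passed and had groups that did not overlap, which is no more than this background. Log2 fold changes are given with standard errors and means with SDs (n = 3 libraries per group), and adjusted p-values are those of limma with the Benjamini-Hochberg method over all genes tested. Gene positions are those of the table, which are on GRCh38. Directions, sizes and the values in each library are therefore what the members can show. OGT itself was at 9628, 11638 and 11619 normalized counts in Scramble against 484, 621 and 537 in shOGT, so the targeted gene was low in every library labelled as knocked down. The recovered reads on the listed genes lay between 4145921 and 4504303 per Scramble library and between 3302558 and 3471647 per shOGT library, and the share of listed genes at 0 reads was 7.27% to 7.90% against 1.21% to 1.74%. Among 13 colon epithelial markers, 5 were listed (KRT20, KRT19 and CDH17 higher, LGALS4 and VIL1 lower), and among 8 markers of other cell types only PECAM1 was, at 47.5 and 168 mean normalized counts. The part of cell composition in the results was not tested, and less RNA per cell cannot be told apart from fewer cells that carry it.

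Of the 69 members, 44 were lower (63.8%) and 25 were higher (36.2%) in shOGT. Over all genes tested, 52.2% were higher and 47.2% lower. Over protein-coding genes the shares were 42.3% higher and 57.1% lower, so the members' split lay close to that of protein-coding genes in general. Among members with a mean of at least 100 normalized counts, 39 of 57 were lower (68.4%), beside 64.5% of 2739 protein-coding genes with such a mean. The median log2 fold change (shOGT relative to Scramble) was −1.13 for the members and −1.11 for protein-coding genes. Changes were mostly modest for this table. The median absolute log2 fold change was 1.28 in the members, 1.57 in protein-coding genes and 1.69 in all genes, 43 members stayed under 1.5 and 13 reached 2. Summed over the 25 higher members, the libraries held 27761, 30279 and 29729 normalized counts in Scramble against 60100, 65601 and 64230 in shOGT. The 44 lower members summed to 74615, 75162 and 71691 in Scramble and to 29613, 27393 and 26215 in shOGT.

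The scaling of the libraries mattered for the lower members. Scaling the libraries by the median of their ratios on the listed genes took the median log2 fold change over all genes from 1.047 to 1.758, further from 0. It raised most log2 fold changes by near 0.71, and the median of the members became −0.41. With such a shift the higher members had to keep their call, as all 25 did. A lower member could pass only if its fall was deep enough beforehand, and 15 of the 44 passed. Among protein-coding genes 42.6% were then higher and 22.6% lower. With the whole reads of the same genes scaled by TMM in edgeR, all 44 lower members passed, with a median of −1.14 over the members and 2691 lower genes in the table. The calls of 29 lower members thus differed between these scalings. With genes under 2-fold left out, the table holds hardly any unchanged genes for either scaling to rest on. Counts after rescaling, here and below, therefore cannot decide whether a member changed 2-fold. Since the table lists genes past 2-fold, no scaling tried could turn a direction.

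**Figure D1:**
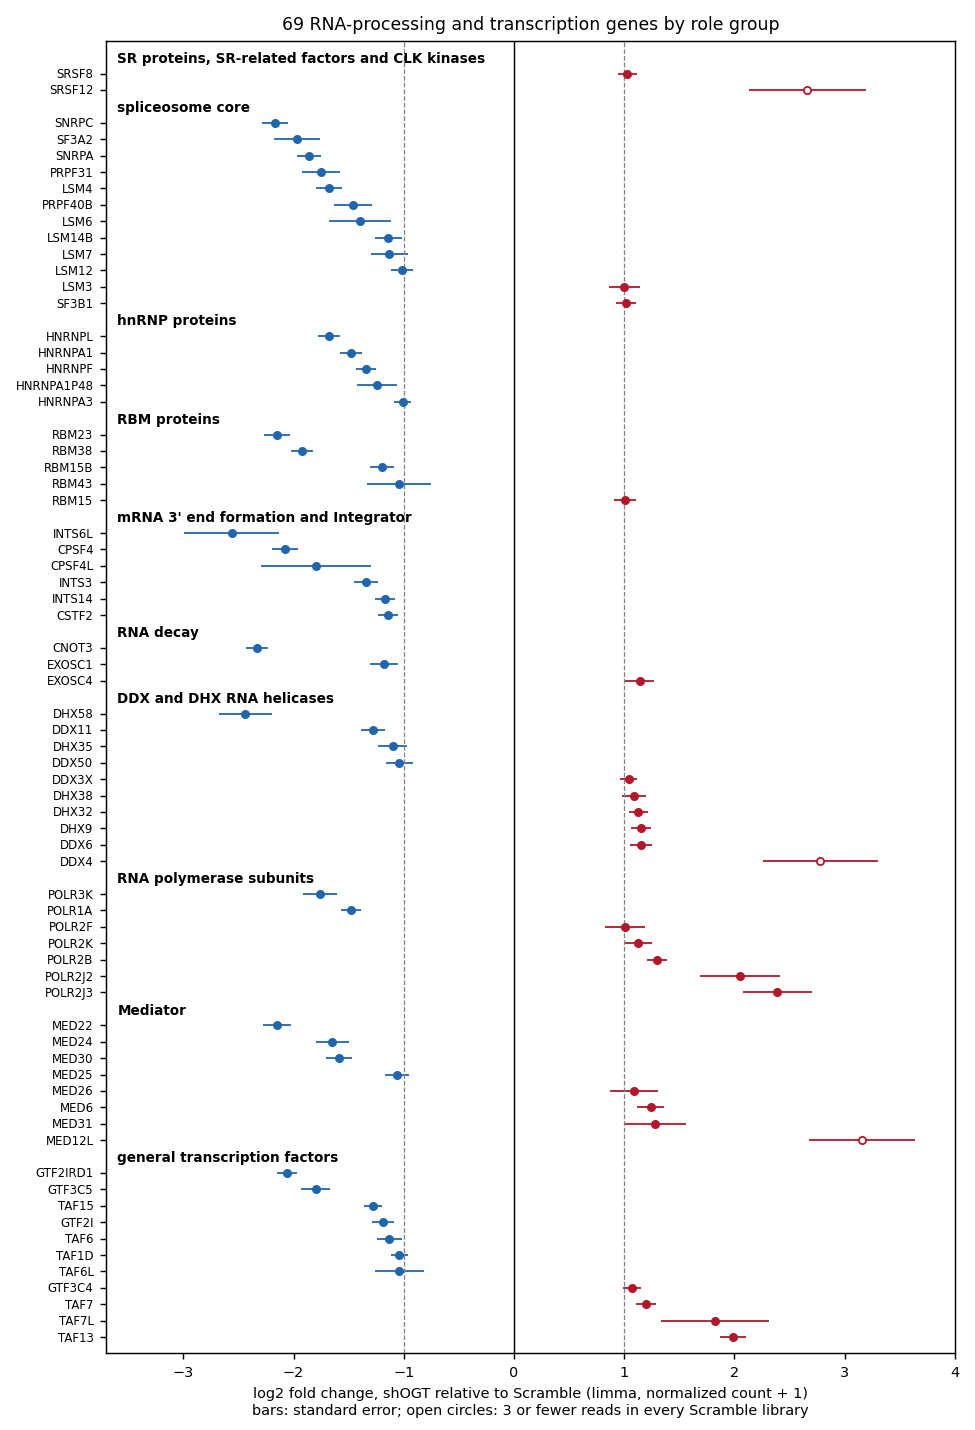
Log2 fold change (shOGT relative to Scramble, limma on normalized counts + 1) of the 69 members, 1 row per gene by role group, with a bar for the standard error, dashed lines at −1 and 1, and open circles for genes with 3 or fewer reads in every Scramble library. The spliceosome, hnRNP and 3′ end groups lie mostly or wholly left of 0, while helicases and polymerase subunits have more points on the right, and no point lies between −1 and 1 because the table lists genes past 2-fold.

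The table holds 69 of the 369 genes that GENCODE release 29 annotates under the same symbols as protein coding (18.7%), beside 4129 of 19951 protein-coding genes overall (20.7%). The fullest group was Mediator, with 8 of 30 genes listed, followed by the spliceosome core with 12 of 51 and by 3′ end formation and Integrator with 6 of 26. Of 24 genes for SR proteins, SR-related factors and CLK kinases, 2 were listed, and no CLK, SRRM, LUC7L, U2AF or XRN gene was among the members. The other annotated genes were not analysed here. The splits of the role groups below are counts of few genes without a test. They stand beside 57.1% lower among listed protein-coding genes, and 64.5% among those with a mean of at least 100.

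The genes grouped by symbol as the spliceosome core were mostly lower, as were 57.1% of listed protein-coding genes. Of 12 members with SF3, SNRP, PRPF or LSM symbols, 10 fell and 2 rose, with a median log2 fold change of −1.43, and after rescaling 4 of the 10 still passed. Both listed proteins of the U1 snRNP, which recognises the 5′ splice site, were among the deepest. SNRPC (chr6:34757406-34773794) encodes the U1 protein that steadies pairing with the 5′ splice site. Normalized counts stood at 999, 1053 and 1042 in Scramble against 220, 201 and 271 in shOGT. The shOGT libraries thus retained 22.4% of the Scramble mean (log2 fold change −2.17 ± 0.12, adjusted p = 8.55e-10). SNRPA (chr19:40750637-40765389), whose product binds a loop of U1 RNA, was at 2153, 2086 and 1890 in Scramble against 658, 488 and 552 in shOGT, with each shOGT library below each Scramble library, and 27.7% remained (log2 fold change −1.86 ± 0.11, adjusted p = 1.79e-09). The U2 snRNP, which recognises the branch point, moved in both directions. SF3A2 (chr19:2236504-2248679) stood at 657, 494 and 468 in Scramble against 182, 146 and 94.5 in shOGT, the lowest value being that of library 6, and 26.1% remained (log2 fold change −1.97 ± 0.21, adjusted p = 4.89e-07). Over 12.7% of their bases, exons of SF3A2 overlap PLEKHJ1 on the opposite strand, which fell as well. SF3B1 (chr2:197389784-197435091), the branch-point subunit mutated in several blood cancers, stood instead at 5897, 6235 and 6362 in Scramble against 11399, 12796 and 13313 in shOGT. Every shOGT library lay above every Scramble library, a rise of 2.03-fold (log2 fold change 1.02 ± 0.09, adjusted p = 5.36e-08). This value lay just over the 2-fold line, and it was 0.99, 1.0 and 0.97 without library 1, 5 or 6.

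The LSm genes, most of which encode parts of a ring around the end of U6 RNA or of its cytoplasmic decay counterpart, were split as well. LSM4 went from mean normalized counts of 2390 ± 250 in Scramble to 750 ± 130 in shOGT and retained 31.4% (log2 fold change −1.68 ± 0.12, adjusted p = 1.00e-08), and LSM6 retained 38.6% and LSM7 46.7%. LSM3 (chr3:14178358-14201119) was at 217, 246 and 206 in Scramble against 413, 406 and 535 in shOGT. All shOGT libraries lay above all Scramble libraries, and the rise was 2.02-fold (log2 fold change 1.0 ± 0.14, adjusted p = 8.16e-06), although it was 0.99, 0.95 and 0.88 without library 1, 3 or 6. LSM12 and LSM14B carry the same domain without being ring subunits, and they retained 49.3% and 45.2%. They are counted with the spliceosome core by symbol alone. Of the stretches of 75 bases in the LSM12 transcript, 21.3% also occur in LSM12P1, so its count can have been split. LSM7 without library 6 (−0.99) and LSM12 without library 1 (−1.0) or 4 (−0.97) were no longer past 2-fold. PRPF31, which joins U4/U6 to U5, retained 30.2% (log2 fold change −1.75 ± 0.17, adjusted p = 2.33e-07), and PRPF40B, a U1-linked factor, retained 36.1%. Exons of PRPF31 overlap those of other genes on the opposite strand over 22.0% of their bases by AC245052.4, and those of PRPF40B over 28.0% by FMNL3 and 20.7% by FAM186B. Whether reads were assigned by strand is not stated, so these values are uncertain.

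The hnRNPs coat nascent RNA and act in splice site choice, and all 5 listed members fell, with a median log2 fold change of −1.34. Among listed protein-coding genes 57.1% were lower, and the median was −1.11. None of the 5 passed 2-fold after rescaling, where their median was −0.62. HNRNPA1 (chr12:54280193-54287088), known for repressing exons, had the highest mean of all members in Scramble before division by length. Normalized counts stood at 13669, 14714 and 13577 in Scramble against 5749, 4866 and 4489 in shOGT, and all shOGT libraries lay far below all Scramble libraries. It retained 36% (log2 fold change −1.48 ± 0.10, adjusted p = 4.17e-09). HNRNPF (chr10:43385617-43409166), which binds runs of G, was at 7658, 7611 and 7208 in Scramble against 3287, 2817 and 2811 in shOGT, and 39.7% remained (log2 fold change −1.34 ± 0.09, adjusted p = 3.93e-09). HNRNPL (chr19:38836388-38852347), a binder of CA repeats, was at 4426, 4261 and 4144 in Scramble against 1531, 1307 and 1179 in shOGT, the strongest loss among the hnRNPs with 31.3% remaining (log2 fold change −1.68 ± 0.10, adjusted p = 1.39e-09). HNRNPA3 went from 6679 ± 461 in Scramble to 3301 ± 120 in shOGT and retained 49.4%, but without library 2 (−0.97) or 4 (−0.99) its log2 fold change was short of 2-fold. HNRNPA1P48, annotated as protein coding despite its pseudogene-like symbol, went from 165 ± 9.3 in Scramble to 69.3 ± 7.26 in shOGT. Of the stretches of 75 bases in HNRNPA1P48 transcripts 41.3% also occur in other genes, among them HNRNPA1 and its copies, and the share was 27.2% for HNRNPA1, 16.2% for HNRNPL and 14.8% for HNRNPA3, so their counts can have been split with those copies. HNRNPF had no such stretch.

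Per kilobase of exon, the order of the members changed between the groups. In Scramble the highest mean levels per kilobase were those of HNRNPA1 (2750 normalized counts), HNRNPF (2300) and HNRNPA3 (1110). In shOGT they were those of TAF7 (1660), SF3B1 (1360) and DHX9 (1290), with HNRNPA1 at 989 and HNRNPF at 914. This is a description of means of 3 libraries, and neighbouring places in the order were not tested.

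The 2 listed SR genes rose. SRSF8 (chr11:95067197-95071224) encodes an SR protein, the class that binds exonic enhancers through an arginine-serine domain. It was at 803, 866 and 768 in Scramble against 1633, 1682 and 1674 in shOGT, a rise of 2.05-fold with no overlap (log2 fold change 1.03 ± 0.09, adjusted p = 5.24e-08), and at 0.99 on the log2 scale without library 3 of Scramble. SRSF12 was at 0 reads in every Scramble library and at 3.16, 12.9 and 3.41 normalized counts in shOGT. Its mean was at least 2.39-fold higher, taking 3 reads per Scramble library as the floor, a bound that covers counting error only. The bound rested on library 5, and without it was 1.21-fold.

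Of 5 RBM genes, a symbol shared by otherwise unrelated proteins with an RNA-binding motif, 4 fell and 1 rose. RBM23 (chr14:22893206-22919184), a nuclear splicing regulator, was at 601, 647 and 641 in Scramble against 149, 145 and 131 in shOGT. The libraries of each group lay close together, and 22.5% remained (log2 fold change −2.15 ± 0.12, adjusted p = 8.67e-10). RBM38 (chr20:57391407-57409333), a p53 target that binds and steadies mRNAs, was at 1219, 1169 and 1126 in Scramble against 318, 322 and 287 in shOGT, with 26.4% remaining (log2 fold change −1.92 ± 0.10, adjusted p = 4.80e-10). RBM43, which went from 51.2 ± 6.8 in Scramble to 24.5 ± 4.47 in shOGT, was short of 2-fold without library 2, 3 or 6, at −1.0, −0.97 and −0.89 on the log2 scale. The paralogs RBM15 and RBM15B, both adaptors that bring the m6A methyltransferase to RNA, moved apart. RBM15 (chr1:110338506-110346681) was at 613, 666 and 627 in Scramble against 1318, 1375 and 1153 in shOGT, a rise of 2.02-fold (log2 fold change 1.01 ± 0.10, adjusted p = 2.08e-07). RBM15B (chr3:51391268-51397908) was at 1657, 1455 and 1501 in Scramble against 761, 687 and 574 in shOGT, and 43.8% remained (log2 fold change −1.2 ± 0.11, adjusted p = 1.25e-07). The rise of RBM15 was 0.98, 1.0, 0.99 and 0.96 on the log2 scale without library 1, 3, 4 or 5, and exons of RBM15B overlap DCAF1 on the opposite strand over 20.0% of their bases.

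**Figure D2:**
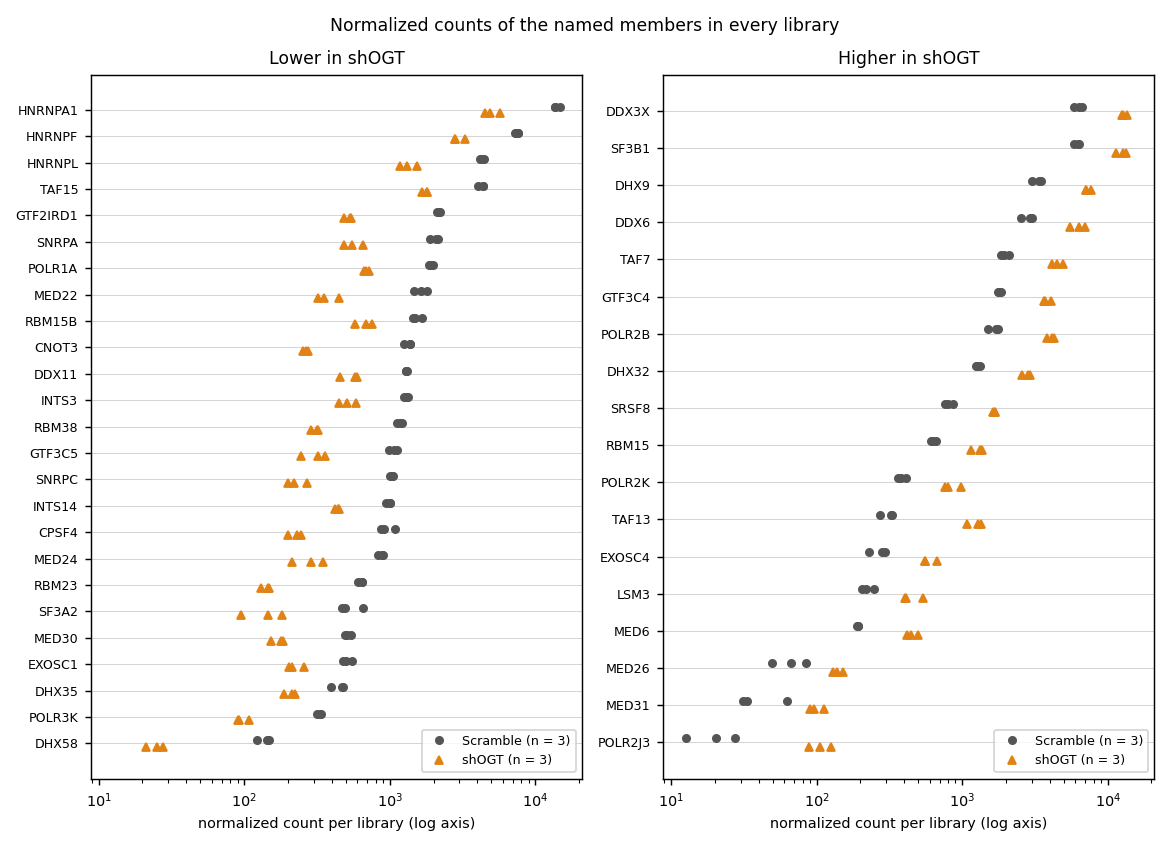
Normalized counts in each library (x axis, log scale) for the lower (left) and higher (right) members given with values in every library, 3 Scramble circles and 3 shOGT triangles per gene. The groups do not overlap for any gene drawn, and the widest spreads within a group are those of low genes such as MED31 and POLR2J3.

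The 6 listed genes of 3′ end formation and Integrator all fell, with a median log2 fold change of −1.57, and 3 of them passed after rescaling. Listed protein-coding genes were lower in 57.1% of cases, with a median of −1.11. CPSF4 (chr7:99438922-99457371) encodes the cleavage factor subunit that helps to recognise the polyadenylation signal. Normalized counts stood at 1079, 911 and 877 in Scramble against 231, 201 and 244 in shOGT, and 23.6% remained (log2 fold change −2.08 ± 0.12, adjusted p = 1.19e-09). CSTF2, the cleavage stimulation factor that binds downstream of the cleavage site, fell from 1201 ± 19 in Scramble to 545 ± 26.6 in shOGT and retained 45.4%. Integrator cleaves snRNA precursors, and its subunits INTS3 and INTS14 were lower in every shOGT library. INTS3 (chr1:153728067-153774808) was at 1342, 1259 and 1299 in Scramble against 587, 510 and 451 in shOGT, with 39.7% remaining (log2 fold change −1.34 ± 0.11, adjusted p = 2.87e-08). INTS14 (chr15:65578753-65611289) was at 936, 1007 and 1009 in Scramble against 445, 422 and 444 in shOGT, with 44.4% remaining (log2 fold change −1.17 ± 0.09, adjusted p = 3.40e-08). INTS6L, a paralog of a further subunit, had the largest fall of all members (log2 fold change −2.56 ± 0.43, adjusted p = 6.03e-05), yet from 42.6, 38.7 and 41.4 to 5.26, 3.21 and 12.5 normalized counts only. CPSF4L, a paralog of CPSF4, went from 14.5 ± 3.32 in Scramble to 3.91 ± 2.61 in shOGT, a value that fell by 1.80 on the log2 scale.

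RNA decay was represented by 3 members. CNOT3 (chr19:54137717-54155708), a subunit of the CCR4-NOT complex that removes poly(A) tails, was at 1380, 1371 and 1251 in Scramble against 267, 252 and 273 in shOGT. The values within a group differed little, and 19.8% remained (log2 fold change −2.33 ± 0.10, adjusted p = 8.86e-11). The RNA exosome, the main 3′ to 5′ RNA-degrading complex, was split. EXOSC1 (chr10:97436142-97446017), a cap subunit, was at 551, 476 and 500 in Scramble against 203, 212 and 257 in shOGT and retained 44.1% (log2 fold change −1.18 ± 0.13, adjusted p = 6.52e-07). EXOSC4, a ring subunit, was at 296, 283 and 230 in Scramble against 667, 558 and 557 in shOGT and rose 2.2-fold (log2 fold change 1.14 ± 0.13, adjusted p = 1.11e-06). An antisense gene overlaps 19.5% of the exon bases of EXOSC4.

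DDX and DHX helicases, which use ATP to unwind or remodel RNA, were the largest group after the spliceosome and the general factors, and 6 of 10 rose. DDX3X (chrX:41333284-41364472), which acts in translation initiation, was at 5913, 6635 and 6363 in Scramble against 12703, 13674 and 12539 in shOGT, the highest mean of all members in shOGT before division by length. It rose 2.06-fold (log2 fold change 1.04 ± 0.08, adjusted p = 3.03e-08), with 1.0 on the log2 scale without library 1. DHX9 (chr1:182839369-182887751), a nuclear helicase of double-stranded RNA, was at 3010, 3489 and 3394 in Scramble against 7088, 7701 and 7123 in shOGT, a rise of 2.21-fold (log2 fold change 1.15 ± 0.09, adjusted p = 1.55e-08). DDX6 (chr11:118747766-118791149), which represses mRNAs and couples them to decapping, was at 2547, 2907 and 3000 in Scramble against 5485, 6951 and 6383 in shOGT, a rise of 2.23-fold (log2 fold change 1.15 ± 0.10, adjusted p = 7.25e-08). In these 3 genes the lowest shOGT library exceeded the highest Scramble library by a wide margin. DHX32 (chr10:125836337-125896436) was at 1237, 1320 and 1260 in Scramble against 2596, 2942 and 2839 in shOGT and rose 2.19-fold (log2 fold change 1.13 ± 0.09, adjusted p = 1.61e-08), and DHX38, a spliceosomal helicase of the second step, rose 2.14-fold from 839 ± 64.6 in Scramble to 1795 ± 223 in shOGT. DHX32 shares 10.4% of its exon bases with BCCIP on the opposite strand, which rose as well. DDX4, a germline helicase, was at 0, 2.7 and 1.84 in Scramble and at 11.6, 13.9 and 17.1 in shOGT, at least 5.24-fold higher on means against a floor of 3 reads per library.

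Lower helicases were fewer. DHX58 (chr17:42101404-42112733), also called LGP2, regulates RIG-I-like sensing of viral RNA. It was at 123, 143 and 147 in Scramble against 21.1, 27.8 and 25 in shOGT, the deepest fall of the group, with 17.9% remaining (log2 fold change −2.44 ± 0.24, adjusted p = 1.97e-07). DDX11 (chr12:31073845-31104791), a DNA helicase of sister chromatid cohesion, was at 1312, 1302 and 1297 in Scramble against 573, 592 and 458 in shOGT and retained 41.5% (log2 fold change −1.28 ± 0.11, adjusted p = 5.01e-08), with 26.3% of its stretches of 75 bases shared with other genes, among them DDX12P. DHX35 (chr20:38962299-39039723) was at 395, 470 and 474 in Scramble against 224, 187 and 212 in shOGT and retained 46.6% (log2 fold change −1.1 ± 0.13, adjusted p = 1.66e-06). DDX50, a nucleolar helicase, went from 791 ± 27.8 in Scramble to 387 ± 62.9 in shOGT and fell by 0.95 on the log2 scale without library 4. After rescaling, DHX58 alone of these 4 passed.

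Of the 7 RNA polymerase subunits, all 5 with POLR2 symbols rose, and POLR1A and POLR3K fell. POLR2B (chr4:56977722-57031168), the second-largest subunit of RNA polymerase II, was at 1507, 1697 and 1759 in Scramble against 3845, 4262 and 4123 in shOGT. The shOGT libraries lay more than 2-fold above all Scramble libraries, a rise of 2.46-fold (log2 fold change 1.3 ± 0.09, adjusted p = 5.82e-09). POLR2K, a small subunit shared by the 3 polymerases, was at 379, 412 and 362 in Scramble against 796, 765 and 977 in shOGT, a rise of 2.2-fold (log2 fold change 1.13 ± 0.12, adjusted p = 3.67e-07). POLR2F, likewise shared, rose 2.03-fold from 164 ± 28 in Scramble to 333 ± 72.3 in shOGT, but stood at 0.86 and 0.84 on the log2 scale without library 3 or 4. POLR2J3, a copy of the POLR2J subunit gene, was at 20.4, 12.6 and 27.6 in Scramble against 105, 125 and 88.8 in shOGT, a rise of 5.27-fold (log2 fold change 2.39 ± 0.31, adjusted p = 4.26e-06), and POLR2J2 went from 7.84 ± 2.19 in Scramble to 34.9 ± 4.11 in shOGT. Since 96.2% of the stretches in POLR2J2 and 23.0% of those in POLR2J3 occur in other genes, among them each other and POLR2J, the copy of origin is uncertain. POLR1A (chr2:86020216-86106155), the largest subunit of RNA polymerase I, which makes ribosomal RNA, was at 1990, 1897 and 1870 in Scramble against 684, 715 and 667 in shOGT and retained 35.9% (log2 fold change −1.48 ± 0.09, adjusted p = 1.32e-09). POLR3K (chr16:46407-53628), a small subunit of RNA polymerase III, was at 333, 338 and 318 in Scramble against 90.5, 92.1 and 108 in shOGT and retained 29.4% (log2 fold change −1.76 ± 0.15, adjusted p = 4.18e-08). POLR3K passed after rescaling and POLR1A, at −0.76, did not.

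Mediator members were evenly divided, 4 higher and 4 lower, with a median log2 fold change of 0.02. MED22 (chr9:133338323-133348131), a subunit of the head module that contacts the polymerase, was at 1814, 1641 and 1479 in Scramble against 447, 352 and 320 in shOGT, the largest fall among them with 22.7% remaining (log2 fold change −2.15 ± 0.13, adjusted p = 1.45e-09). MED24 (chr17:40019097-40061215), of the tail module that binds activators, was at 835, 881 and 905 in Scramble against 349, 286 and 214 in shOGT and retained 32.4% (log2 fold change −1.65 ± 0.15, adjusted p = 9.90e-08). MED30 was at 545, 511 and 496 in Scramble against 184, 153 and 179 in shOGT and retained 33.3% (log2 fold change −1.59 ± 0.12, adjusted p = 2.39e-08). MED25, a target of activators, retained 47.8% (−0.96 on the log2 scale without library 1), and an antisense gene in the table that rose, PTOV1-AS1, overlaps 18.7% of its exon bases. MED6 (chr14:70581257-70600690), also of the head, rose instead. It was at 193, 188 and 191 in Scramble against 498, 443 and 418 in shOGT, a rise of 2.37-fold (log2 fold change 1.24 ± 0.12, adjusted p = 2.45e-07). Of the stretches of 75 bases in MED6, 12.8% also occur in AL357153.3, which overlaps 7.51% of its exon bases on the same strand. MED31 (chr17:6643315-6651634) was at 31, 62.2 and 33.1 in Scramble against 89.5, 96.4 and 112 in shOGT and rose 2.35-fold (log2 fold change 1.28 ± 0.28, adjusted p = 0.000523), but 58.3% of its exon bases overlap TXNDC17 on the opposite strand. MED26 was at 84.3, 49.6 and 66.3 in Scramble against 153, 130 and 139 in shOGT and rose 2.1-fold (log2 fold change 1.09 ± 0.22, adjusted p = 0.000271), and 41.2% of its stretches of 75 bases occur in 2 neighbouring annotated genes. Its rise was 0.90 on the log2 scale without library 2. MED12L, a paralog of the kinase-module subunit MED12, was at 0, 0.901 and 1.84 in Scramble and at 12.6, 18.2 and 13.7 in shOGT, at least 5.48-fold higher.

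Among 11 genes with TAF or GTF symbols, 7 fell and 4 rose, and 2 of the 7 passed after rescaling. They are grouped here as general transcription factors by symbol alone, which also takes in genes that are not general factors. The TFIID genes moved in both directions. TAF13 (chr1:109062486-109076002), which pairs with another subunit in the lobe that receives TBP, was at 273, 326 and 330 in Scramble against 1084, 1291 and 1340 in shOGT. Each shOGT library held more than 3 times any Scramble library, and the rise of 4.0-fold was the largest among members with a mean of at least 100 (log2 fold change 1.99 ± 0.12, adjusted p = 1.32e-09). TAF7 (chr5:141260225-141320821), a regulator of the acetylase activity of TFIID, was at 1864, 2084 and 1942 in Scramble against 4114, 4498 and 4908 in shOGT and rose 2.3-fold (log2 fold change 1.2 ± 0.09, adjusted p = 1.57e-08). TAF6 went from 679 ± 50.9 in Scramble to 310 ± 20.3 in shOGT and retained 45.6%, with 24.7% of its exon bases overlapped by AP4M1 on the opposite strand, and TAF6L, its paralog in SAGA-type complexes, retained 47.4% and stood at −0.86 and −0.99 on the log2 scale without library 1 or 6. TAF15 (chr17:35713791-35864615), an RNA-binding protein found with TFIID, was at 4400, 4355 and 4071 in Scramble against 1804, 1805 and 1672 in shOGT and retained 41.2% (log2 fold change −1.28 ± 0.08, adjusted p = 3.19e-09). TAF7L, a germline paralog of TAF7, went from 2.71 ± 1.56 in Scramble to 12.3 ± 5.74 in shOGT.

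TFIIIC, which recognises promoters of transfer RNA genes, was split in a like manner. GTF3C4 (chr9:132670035-132694955) was at 1773, 1799 and 1862 in Scramble against 3633, 3707 and 4060 in shOGT and rose 2.1-fold (log2 fold change 1.07 ± 0.08, adjusted p = 2.04e-08). GTF3C5 (chr9:133030675-133058503) was at 1123, 982 and 1071 in Scramble against 358, 320 and 245 in shOGT and retained 29.1% (log2 fold change −1.8 ± 0.13, adjusted p = 1.34e-08). The TFII-I genes, neighbours on chromosome 7, both fell. GTF2IRD1 (chr7:74453790-74602604) was at 2172, 2208 and 2104 in Scramble against 539, 537 and 484 in shOGT, with 24% remaining (log2 fold change −2.06 ± 0.09, adjusted p = 1.07e-10), and GTF2I, which went from 1915 ± 73.1 in Scramble to 842 ± 87.3 in shOGT, retained 44%, although 65.2% of its stretches of 75 bases occur in GTF2IP1 or GTF2IP4. TAF1D, a factor of RNA polymerase I initiation, went from 3114 ± 222 in Scramble to 1514 ± 21.9 in shOGT and retained 48.6%.

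In 7 complexes or families with listed members on both sides, the ratio of a higher to a lower member was taken within each library, which removes the scaling of the library. The pairs were picked with their values in view and are given without a test, and since counts were not divided by length the ratios say nothing of how many molecules of each were present. The ratio of SF3B1 to SF3A2 was 8.97, 12.6 and 13.6 in Scramble against 62.6, 87.8 and 141 in shOGT, 8.28-fold higher in shOGT. MED6 over MED22 showed the largest shift of these pairs, from 0.107, 0.115 and 0.129 in Scramble to 1.11, 1.26 and 1.31 in shOGT, a 10.5-fold difference. TAF13 over TAF6 was 0.377, 0.474 and 0.529 in Scramble against 3.56, 3.89 and 4.58 in shOGT, 8.71-fold apart. GTF3C4 over GTF3C5 was 7.44-fold apart, LSM3 over LSM4 6.57-fold and EXOSC4 over EXOSC1 5.07-fold. RBM15 over RBM15B was 4.61-fold apart. The polymerase pair POLR2B over POLR1A, from separate enzymes, was 0.757, 0.895 and 0.941 in Scramble against 5.62, 5.96 and 6.18 in shOGT, 6.85-fold apart. In every pair the 3 shOGT ratios lay above the 3 Scramble ratios, which the choice of pairs fixed, and the shift of each pair is independent of which library scaling is used.

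**Figure D3:**
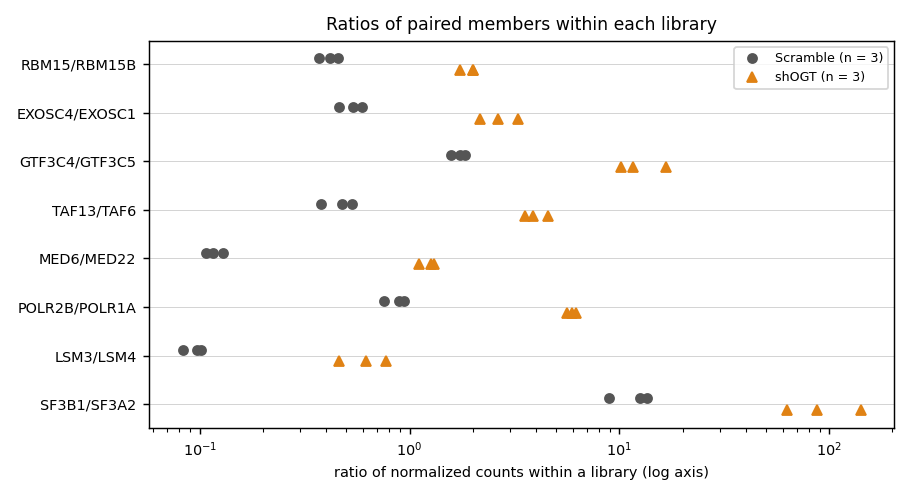
Ratio of a higher to a lower member within each library (x axis, log scale), 3 Scramble circles and 3 shOGT triangles per pair. The shOGT points lie to the right of the Scramble points in all 8 pairs, with shifts between 4.61-fold (RBM15 over RBM15B) and 10.5-fold (MED6 over MED22).

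Genes of the same processes that the symbol rule does not take were counted from lists written from general knowledge. Of 45 splicing kinases and regulators, 7 were listed, 2 higher and 5 lower. ESRP1, the epithelial splicing regulator, fell from 5739 to 1936, CIRBP, the cold-inducible RNA-binding protein, from 903 to 222 and SCAF1 from 1738 to 695. PTBP2, the neuronal relative of the splicing repressor PTBP1, rose from 347 to 1039 mean normalized counts (log2 fold change 1.57 ± 0.13, adjusted p = 3.21e-08). Of 59 further spliceosome factors 10 were listed, 4 higher and 6 lower. The U5 snRNP gene SNRNP40 fell from 744 to 274, with FRA10AC1, PPIL2 and USP39 next to it in size, and no gene of this list had an absolute log2 fold change over 1.44. Of 38 genes of 3′ end formation, export and the exon junction complex 4 were listed. The nuclear poly(A)-binding protein gene PABPN1 fell from 672 to 163 (log2 fold change −2.08 ± 0.18, adjusted p = 5.36e-08) and the export cofactor NXT1 from 461 to 94.6, whereas NXF1, the export receptor that NXT1 partners, rose from 757 to 1569. Of 54 genes of RNA surveillance and decay 13 were listed, 3 higher and 10 lower. PAN2, a poly(A) nuclease, fell from 484 to 74.4 (log2 fold change −2.69 ± 0.15, adjusted p = 8.89e-10), the antiproliferative gene BTG1, whose product activates deadenylation, from 3459 to 889, and SMG5, of nonsense-mediated decay, from 4869 to 1640. DCP1B, of the decapping complex, fell from 117 to 43.8. SMG6, SMG9 and UPF1 were picked out after their values were seen. The first pair fell with SMG5, whereas UPF1, the central helicase of that pathway, rose from 2033 to 4267 (log2 fold change 1.07 ± 0.09, adjusted p = 4.12e-08). Of 56 elongation and CDK genes 5 were listed. CDK8, the Mediator kinase, rose from 892 to 2093 and BRF2, of RNA polymerase III, from 33.3 to 135. UBTF, which acts with RNA polymerase I, fell from 1554 to 533, and ELL2, of the super elongation complex, from 1273 to 599. Over these 5 lists 12 genes were higher and 27 lower, and 6 of the 27 passed after rescaling. Of listed protein-coding genes 57.1% were lower, and 64.5% of those with a mean of at least 100. The numbers listed stand beside the 20.7% of annotated protein-coding genes that the table holds, and neither share was tested.

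Transcript base composition differed between the higher and the lower members, as it did among protein-coding genes. The median GC content was 42.8% in the 25 higher members and 51.4% in the 44 lower ones, beside 46.0% and 54.5% in protein-coding genes. Among members under 45% GC, 9 of 27 were lower (33.3%, protein-coding genes 38.1%). Between 45% and 55% the count was 16 of 19 (84.2%, protein-coding genes 58.1%), and from 55% upwards 19 of 23 (82.6%, protein-coding genes 73.1%). SF3A2 (66.6%) and RBM38 (63.1%) stood at the GC-rich end of the lower members, and POLR2K (35.2%) and TAF13 (35.9%) at the GC-poor end of the higher ones. Chromosome 19, rich in GC, held 9 members, of which 8 were lower, and 75.9% of its listed protein-coding genes were lower. Base composition moved with direction across the whole table, and its part in the direction of the members was not tested.

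**Figure D4:**
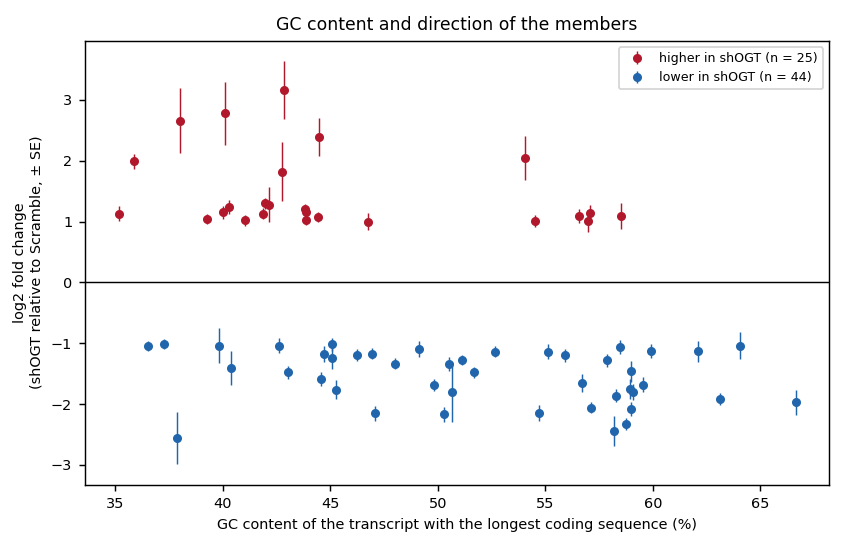
Transcript GC content (percent, x axis) against log2 fold change (y axis) for the 69 members, 1 point per gene with its standard error. Higher members crowd at low GC, with a median of 42.8%, and lower members reach further to the right, with a median of 51.4%, and the empty band between −1 and 1 comes from the 2-fold limit of the table.

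Promoters were compared because members of the same complexes moved in different directions. RefSeq starts on GRCh38.p14 matched 54 of the 69 members, and the most upstream RefSeq start of each gene was taken, with 250 bases before it and 50 after. For some members, among them PRPF40B, DDX4 and DHX32, this start lay well inside the gene as positioned in GENCODE, so their windows may miss another promoter. Short motifs were sought on both strands: GCCAAT (the core bound by NF-Y), CCGGAA (the core of ETS factor sites), CACGTG (the E-box bound by c-Myc and its relatives) and TATAAA (bound by TBP). Different motifs can share at most 1 end base, CCGGAA can overlap its own reverse complement, and a promoter was counted once per motif. Stretches of 120 bases that end at the start are shown for 3 lower and 3 higher members, chosen because at most 30 of their bases lie in an annotated exon and because they cover promoters with each of 3 motifs and 1 promoter with none. Capitals mark a motif on either strand, and each stretch is written 5′ to 3′ on the strand of its gene.
INTS3, lower, chr1:153727930-153728049, plus strand: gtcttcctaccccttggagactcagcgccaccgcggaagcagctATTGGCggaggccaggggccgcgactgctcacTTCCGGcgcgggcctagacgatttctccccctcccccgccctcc
LSM14B, lower, chr20:62122355-62122474, plus strand: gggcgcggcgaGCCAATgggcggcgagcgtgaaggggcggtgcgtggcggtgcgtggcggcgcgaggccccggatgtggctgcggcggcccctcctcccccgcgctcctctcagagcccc
HNRNPL, lower, chr19:38852348-38852467, minus strand: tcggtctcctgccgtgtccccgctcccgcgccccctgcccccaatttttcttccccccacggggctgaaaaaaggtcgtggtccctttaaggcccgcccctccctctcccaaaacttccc
SF3B1, higher, chr2:197435094-197435213, minus strand: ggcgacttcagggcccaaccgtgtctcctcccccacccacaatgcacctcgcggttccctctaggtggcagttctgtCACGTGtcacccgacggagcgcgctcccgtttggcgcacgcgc
DHX9, higher, chr1:182839227-182839346, plus strand: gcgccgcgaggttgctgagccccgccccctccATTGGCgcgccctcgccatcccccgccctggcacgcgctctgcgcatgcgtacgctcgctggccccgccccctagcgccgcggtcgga
TAF13, higher, chr1:109076004-109076123, minus strand: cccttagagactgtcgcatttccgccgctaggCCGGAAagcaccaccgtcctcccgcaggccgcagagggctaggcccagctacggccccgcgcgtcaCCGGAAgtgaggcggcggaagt

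The NF-Y core separated the members most. It was found in 14 of 33 lower members (42.4%) and in 2 of 21 higher members (9.52%, DHX9 and RBM15), beside 28.8% of lower and 12.8% of higher protein-coding genes and 15.4% of all 27305 promoters. The lower members with it were CNOT3, CPSF4, DDX50, GTF2IRD1, INTS14, INTS3, INTS6L, LSM14B, MED24, PRPF40B, RBM23, SNRPA, TAF6 and TAF6L. In the stretches above it stands at 76 bases before the start of INTS3, 109 before that of LSM14B and 88 before that of DHX9, a higher member. In RBM15, the other higher member, it lies after the start. The ETS core was found in 33.3% of lower and 47.6% of higher members, beside 24.1% and 22.2% of protein-coding genes and 17.6% of all promoters. TAF13 holds it at 88 and 22 bases before the start. The E-box was found in 4 lower members (12.1%) and in 4 higher members (19.0%), beside 9.07% and 10.5% of protein-coding genes and 7.40% of all promoters. It stands 43 bases before the start of SF3B1. TATAAA was found in 1 lower member, SNRPC (3.03%), and 1 higher member, DHX32 (4.76%), against 12% of all promoters. It stands 237 bases before the start of SNRPC and 157 before that of DHX32. These are counts of letters in a window, without a test, and they show no binding.

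**Figure D5:**
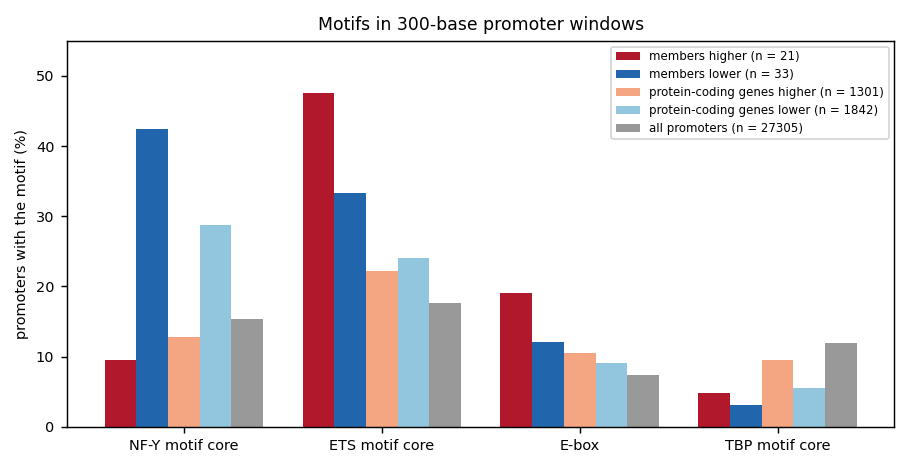
Percent of promoters (250 bases before to 50 after the RefSeq start) that hold each motif core, as bars from 0 for higher members (n = 21), lower members (n = 33), higher (n = 1301) and lower (n = 1842) protein-coding genes and all 27305 promoters. The NF-Y core stands out, at 42.4% of lower and 9.52% of higher members, and the ETS core lies the other way, at 33.3% and 47.6%.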

How the data were processed

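RNA was sequenced from HT-29 cells with a Scramble hairpin (3 libraries) or a hairpin against OGT (3 libraries), and samples were grouped by their titles. Per the labels, poly(A) RNA was captured with oligo(dT), second strands were marked with dUTP and adapters carried unique molecular identifiers, whereas the study's methods name a SureSelect strand-specific kit. The submitters' processing notes name cutadapt 1.9, HISAT2 2.0.4, UMI-tools, StringTie 1.3.4d, DESeq2, edgeR and the mouse build mm8, without roles. Gene starts and ends matched GENCODE release 29 (GRCh38) for all 5681 genes. The authors deposited a signal per gene and library that is a read count divided by a size factor (1.09 to 1.13 in Scramble, 0.879 to 0.950 in shOGT), and 100% of the values came out as whole reads, within 0.02 of a read. The authors also deposited their group means, log2 fold changes of shOGT relative to Scramble and p-values, which were not used. The table lists only genes past 2-fold and an adjusted p of 0.05.

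The model was limma 3.58.1 (trend, R 4.3.3) on log2 of the normalized count with a pseudocount of 1 and group as its term. It took 5671 genes that reached 1 in 3 or more libraries, and called a gene at an absolute log2 fold change over 1 and a Benjamini-Hochberg adjusted p under 0.05 over all genes. The plan allowed for counts or normalized values, and the branch for normalized values was followed. Scripts were tested on simulated data. Alternatives were rescaling by the median of ratios, a pseudocount of 0.1, no filter, a mean of at least 5, count tests of the whole reads (edgeR 4.0.16, DESeq2 1.42.0), each with 2 scalings, and each library left out. The members, role groups and lists were chosen with earlier results of these data known. Values in every library were given for up to 3 higher and 3 lower members per role group, those of largest change with a mean of at least 50, and for the 5 members of highest mean. From each list up to 4 genes of largest change with a mean of at least 50 were named. Members outside this rule were named as far as each role group needed them. With whole reads and 3 libraries per group, 3 or fewer reads in every library were treated as a floor. Such bounds cover counting error only. Exon overlaps and shared stretches of 75 bases were taken from GENCODE release 29, and promoters from RefSeq. Protein sequences were not analysed here.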

Additional observations from a re-analysis of the deposited data

How the results depend on the processing

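Of 69 members, 32 stayed past both thresholds under each of the 14 alternatives. Under the 6 that used all libraries and no median-of-ratios scaling of the listed genes, edgeR with TMM among them, every member tested stayed past them, SRSF12 not being tested at a mean of at least 5, which left 1 higher SR gene. No paired analysis was possible because the groups share no replicate number.

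Rescaling by the median of ratios, DESeq2 with its own size factors and TMM all assume that the listed genes are balanced or mostly unchanged. The 2-fold limit of the table gives no ground for this. Under rescaling and DESeq2 with its own size factors, lower members numbered 15 and 14. The median log2 fold change of all 69 members was −0.41 under both, and lower genes in the whole table numbered 1090 and 994. The counts of lower members were, in the same order, 4 and 4 for the spliceosome, 0 and 0 for hnRNPs, 2 and 2 for RBM genes, 3 and 2 for 3′ end formation and Integrator, 1 and 1 for RNA decay, 1 and 1 for helicases, 1 and 1 for polymerase subunits, 1 and 1 for Mediator and 2 and 2 for general factors. On the lists they were 2 and 2 for splicing regulators, 0 and 0 for further spliceosome factors, 0 and 0 for elongation genes and 2 and 2 for surveillance and decay.

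When single libraries were left out, the members' median ranged from −1.15 to −1.09, higher RBM genes from 0 to 1, higher spliceosome genes from 0 to 2 and higher SR genes from 1 to 2. In all, 14 members lost their call without at least 1 library. Depth is known for the listed genes alone, and the 8 members with a mean under 50 normalized counts are the least precise. The table's own threshold leaves out members that changed less than 2-fold.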
